A study of Mus musculus with 2 samples.

Results

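Pigmented cells of the eyecup were taken as the cells with at least 4 UMIs (unique molecular identifiers, each counted as 1 captured transcript) summed over *Pmel*, *Dct*, *Trpm1* and *Tyrp1*. Before that, cells were kept with more than 200 and fewer than 6000 detected genes, 1 to 20% mitochondrial UMIs, under 20% hemoglobin UMIs and under 1% UMIs of the lens crystallins *Cryaa* and *Cryab*. This gave 739 pigmented cells of 17458 kept cells, from 22987 cells in all. The control library held 98 of 7331 kept cells and the DKO library 641 of 10127. Since the measured levels of these 4 genes chose the cells, their values are given as a description only.

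Both libraries came from mouse eyecups at E13.5, with retina, lens and blood, dissociated with papain and captured with the 10x Genomics 3′ kit. Control eyecups were Six3+/-;Six6+/- and thus carried 1 lost copy of each gene. DKO eyecups were Six3F/F;Six6-/-;a-Cre. The a-Cre transgene deletes *Six3* in the peripheral retina and leaves it in the center, whereas *Six6* is lost in the germline. The counts used here list no Cre feature, so DKO cells in which Cre had acted cannot be told from the others. There was 1 library per genotype, so no test between genotypes was possible, and intervals (95%) cover counting error only. Differences between embryos, dissections and genotypes cannot be told apart.

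The outer layer of the optic cup becomes the retinal pigment epithelium (RPE), and the inner layer becomes the neural retina. At the rim, where the layers meet, lies the ciliary margin, which later forms the ciliary body and iris and carries pigment on its outer side. MITF, together with OTX2, switches on the genes of the melanosome, the organelle in which melanin is made. In the neural retina, progenitors instead express *Rax*, *Pax6*, *Sox2*, *Sfrp2* and *Ccnd1*. SIX3 and SIX6 are homeodomain factors of the retinal progenitors.

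The promoters of 4 pigment genes are shown because these genes, 3 of the selecting genes and *Tyr* (tyrosinase, the first enzyme of melanin synthesis), carry the results below. Each runs 250 bases before to 50 bases after a RefSeq start site (GRCm38.p6), 5′ to 3′ on the gene's strand. Capitals mark the M-box core CATGTG, which reads CACATG where it lies on the other strand, letters that MITF is known to bind. The E-box with the letters CACGTG was searched too. They lie at chr14:118052197-118052496 (minus strand) for *Dct*, chr7:64153585-64153884 (plus) for *Trpm1*, chr4:80833963-80834262 (plus) for *Tyrp1* and chr7:87493463-87493762 (minus) for *Tyr*.
Dct: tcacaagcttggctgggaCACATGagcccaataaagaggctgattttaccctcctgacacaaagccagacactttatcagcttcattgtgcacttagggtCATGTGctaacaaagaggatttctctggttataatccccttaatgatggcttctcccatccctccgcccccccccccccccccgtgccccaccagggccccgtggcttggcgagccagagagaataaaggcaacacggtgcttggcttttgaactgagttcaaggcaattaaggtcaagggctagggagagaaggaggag
Trpm1: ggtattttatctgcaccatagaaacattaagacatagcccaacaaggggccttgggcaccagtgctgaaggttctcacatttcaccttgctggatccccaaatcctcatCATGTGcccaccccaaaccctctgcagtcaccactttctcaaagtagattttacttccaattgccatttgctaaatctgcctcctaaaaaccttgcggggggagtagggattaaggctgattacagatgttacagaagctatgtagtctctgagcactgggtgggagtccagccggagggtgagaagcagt
Tyrp1: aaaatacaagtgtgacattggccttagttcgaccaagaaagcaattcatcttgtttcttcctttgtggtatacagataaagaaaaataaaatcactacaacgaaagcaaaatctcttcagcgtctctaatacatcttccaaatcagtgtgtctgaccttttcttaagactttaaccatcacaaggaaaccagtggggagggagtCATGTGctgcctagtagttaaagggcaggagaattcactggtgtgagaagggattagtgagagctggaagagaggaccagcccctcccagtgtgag
Tyr: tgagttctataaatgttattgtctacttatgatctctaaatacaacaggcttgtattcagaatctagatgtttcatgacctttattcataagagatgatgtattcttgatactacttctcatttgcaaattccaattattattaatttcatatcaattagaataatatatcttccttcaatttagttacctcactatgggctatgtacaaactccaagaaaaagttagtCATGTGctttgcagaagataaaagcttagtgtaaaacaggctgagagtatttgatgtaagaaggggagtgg
Of 20 pigment genes looked up, 13 matched the promoter table, and 8 of these held a hexamer at 1 or more start sites (9 of 18 promoters). Of all 32851 promoters in the table, 20.4% held either hexamer on either strand, and 14.2% held the first. A match of letters is a description and was not tested as a binding site.

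Pigmented cells made up 1.34% (1.09 to 1.63%) of kept control cells and 6.33% (5.86 to 6.82%) of kept DKO cells. The share was thus larger in the DKO library, although its cells were shallower: the kept cells had medians of 7923 UMIs in the control and 6137 in the DKO. When each cell was thinned at random to 2000 UMIs and at least 2 UMIs of the 4 genes were required, the shares were 0.864% (60 of 6944) and 4.72% (447 of 9476). Blood cells show the background: with at least 20% hemoglobin UMIs, 1 of 1445 control cells (0.0692%) and 6 of 1001 DKO cells (0.599%) reached 4 UMIs of the 4 genes. Their median depths were 8110 and 5881 UMIs. The libraries held 85589515 and 85173276 UMIs in all, and the pigmented cells held 1347520 and 7138228. Pigmented cells were deeper than other cells, with medians of 12516.5 UMIs (control) and 9693 UMIs (DKO), and a fixed limit in UMIs favors deep cells. The libraries shared 22 cell barcodes, of which 1 was a pigmented control cell and 0 were pigmented DKO cells.

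The pigmented cells were far from uniform. Counted per 10000 UMIs of the cell, the 4 genes took 1.25 UMIs in the lowest control cell, 9.09 in the median cell and 229.9 in the highest, against 1.33, 12.2 and 198.9 in the DKO. The cells were therefore described in 4 bins of this pigment share. Under 10 per 10000 there were 52 control and 269 DKO cells, at 10 to 30 there were 14 and 240, at 30 to 100 there were 11 and 113, and at 100 or more there were 21 and 19. Cells of the highest bin made up 0.286% (0.177 to 0.438%) of the control and 0.188% (0.113 to 0.293%) of the DKO library, with overlapping intervals. The larger DKO share thus lay in the lower bins: cells at 10 to 100 made up 0.341% of the control and 3.49% of the DKO library, and cells under 10 made up 0.709% and 2.66%. Median depth was lower in the most pigmented cells, with 8147 UMIs in control and 6513 in DKO cells at 100 or more, against 14979.5 and 12211 under 10. Every value below that pools the bins mixes these unequal proportions.

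**Figure D1:**
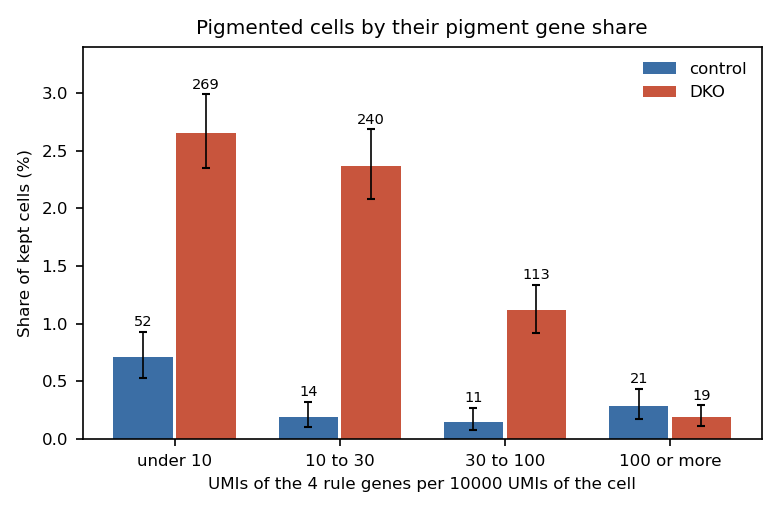
Share of kept cells (%, vertical axis) that were pigmented, by UMIs of *Pmel*, *Dct*, *Trpm1* and *Tyrp1* per 10000 UMIs of the cell (horizontal axis), for the control and the DKO library; error bars are exact binomial 95% intervals and the numbers above them count cells. The DKO bars are higher in the 3 lower bins, and at 100 or more the intervals of 0.286% and 0.188% overlap.

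Among the selecting genes, *Pmel* encodes the protein of the melanosome's fibrils, *Dct* and *Tyrp1* encode melanin enzymes, and *Trpm1* encodes a cation channel that MITF is known to activate. *Pmel* stood at 1519 UMIs per 1000000 UMIs of the cells (CPM) in control and 498 CPM in DKO pigmented cells, and *Tyrp1* at 103 and 32.1 CPM. *Dct* stood at 492 and 442 CPM, and *Trpm1* at 1092 and 1037 CPM. *Trpm1* was detected in 95.9% of control and 98.8% of DKO members, *Dct* in 67.3% and 82.4%, *Pmel* in 70.4% and 37.9%, and *Tyrp1* in 32.7% and 14%. DKO members therefore met the rule mostly through *Trpm1* and *Dct*. By *Trpm1* alone, 68 control and 547 DKO cells had 4 UMIs, by *Dct* alone 38 and 265, by *Pmel* alone 45 and 129, and by *Tyrp1* alone 15 and 17.

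Just outside the limit, at 2 to 3 UMIs, were 116 control and 306 DKO cells, and just inside it, at 4 to 5 UMIs, were 31 and 131. Outside and inside, *Mitf* stood at 21.7 and 35 CPM in the control and at 57.5 and 60.1 CPM in the DKO, and *Gja1* at 301 and 424 CPM and at 501 and 810 CPM. *Rax* stood at 291 and 243 CPM (control) and at 350 and 401 CPM (DKO), and *Sfrp2* at 999 and 501 CPM and at 361 and 257 CPM. The values on both sides of the limit were graded, with *Gja1* higher and *Sfrp2* lower inside it in both libraries.

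Markers that the rule did not use bear on the label. *Mitf*, the master regulator of pigment cells, stood at 161 CPM (140 to 184) in control and 142 CPM (133 to 151) in DKO pigmented cells, against 3.3 and 10.1 CPM in unpigmented cells. Unpigmented cells here means 3291 control and 2960 DKO kept cells with 0 UMIs of the 4 genes, 0 of *Atoh7* and at most 1 of the neuron genes. They also held at most 1 UMI over *C1qa*, *C1qb* and *Tyrobp* and at most 1 over *Col1a1*, *Col3a1* and *Cdh5*. No progenitor gene thus chose them. The visual cycle genes of the mature RPE were at 0 or low: *Rpe65* and *Lrat* had 0 UMIs in the members of both libraries, and *Rlbp1*, a retinoid carrier, stood at 28.2 and 7.28 CPM. *Sox10*, which defines neural crest melanocytes, had a UMI in 0 of 98 control and 0 of 641 DKO members, which allows shares of cells with a UMI of up to 3.06% and 0.468% (3 counts of the total). Under 30 per 10000 *Tyr* and *Mlana* were at or near 0 in both libraries, so the bins are called here by their pigment share, not by a cell type.

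The melanosome genes were higher in pigmented than in unpigmented cells of both libraries and, pooled over all members, lower in the DKO. Of 16 such genes outside the rule, 10 had the 100 UMIs over both libraries that were required of a gene. DKO members held 7138228 UMIs, against 1347520 in control members. Genes high only in the DKO thus passed this limit at lower levels than genes high only in the control. This holds for every count of higher and lower genes below. All 10 of them in the control, and 9 in the DKO, were at least 2-fold above unpigmented cells, with median log2 ratios of 6.97 and 5.08. Over all 8037 genes that passed, 9.21% in the control and 7.17% in the DKO were as far above, and the medians were 0.03 and 0.05. Members and these genes vary together by choice of the cells, so this is a description.

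Between the libraries, 7 of the 10 melanosome genes were at least 2-fold lower in DKO pigmented cells and 1 was higher, with a median log2 ratio of -1.33. Of all 8037 genes, 2.21% (178) were as far below and 2.55% (205) as far above, with a median of 0.01. In thinned cells, where 1788 genes passed, these counts were 37 and 97. *Tyr* stood at 86.8 CPM (71.8 to 104) in control and 19.9 CPM (16.8 to 23.4) in DKO members, a log2 ratio of -2.13 (-2.49 to -1.76). *Mlana*, a melanosome membrane protein, stood at 122 and 27 CPM (-2.17), and *Gpnmb*, a relative of *Pmel*, at 217 and 72.8 CPM (-1.58). The transporters *Oca2* (-1.37) and *Slc24a5* (-1.24), the trafficking gene *Rab27a* (-1.29) and *Bace2*, a protease of the fibril protein (-1.64), were lower too. *Rab38* (-0.72) and *Mitf* (-0.18, -0.40 to 0.03) did not reach 2-fold. *Tfec*, a relative of *Mitf*, was the 1 higher gene, at 17.1 and 51.6 CPM (1.59, 0.99 to 2.27).

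This pooled difference shrank within bins. Among cells with 100 or more per 10000, the median of the 6 melanosome genes with enough UMIs was -0.45. There *Tyr* stood at 508 CPM (414 to 616) in the control and 361 CPM (275 to 466) in the DKO, a log2 ratio of -0.49 (-0.98 to -0.02). *Mlana* stood at -0.29 (-0.71 to 0.11) and *Gpnmb* at -0.16 (-0.45 to 0.13), with intervals that held 0, and *Mitf* at -0.87 (-1.42 to -0.35). From 10 to 100 per 10000, the median over 8 genes was -0.85, with *Mlana* at -1.85 (-2.42 to -1.24). Under 10, the median over 4 genes had the other sign, 0.73, and *Mitf* stood at 57.3 CPM in control and 95.1 CPM in DKO cells.

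Of 18 RPE genes, 7 passed the limit on UMIs, with 1 at least 2-fold higher and 2 lower in the DKO (2.55% and 2.21% of all genes) and a median log2 ratio of 0.45. *Otx2*, which specifies the RPE, stood at 125 CPM (107 to 145) and 59.5 CPM (54 to 65.5), a log2 ratio of -1.07. *Otx1* was close between libraries, at 126 and 115 CPM (-0.13, -0.37 to 0.12). *Nr2f2*, a nuclear receptor of the dorsal optic cup and RPE, was the higher gene, at 137 and 311 CPM (1.19). *Nr2f1* stood at 312 and 518 CPM (0.73). By bin, *Otx2* stood at 20.3, 10.7, 274 and 572 CPM in the control and at 31.1, 46.9, 139 and 288 CPM in the DKO, and *Nr2f1* at 414, 327, 41.5 and 34.5 CPM and at 525, 579, 440 and 85.7 CPM. *Otx2* was thus highest in the most pigmented cells of both libraries. *Nr2f1* was lowest there, and at 30 to 100 its levels lay far apart between libraries.

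Some ciliary margin genes stood above unpigmented cells in both libraries, among them *Gja1* and *Wls*, which were also higher in DKO than in control members. Of 12 such genes 11 passed, with 3 at least 2-fold higher and 1 lower in the DKO and a median log2 ratio of 0.17 (0.66 in thinned cells and 0.61 with at least 10 UMIs of the 4 genes per 10000), against 2.55% of all genes higher and 2.21% lower. *Gja1*, the gap junction gene that joins the pigmented and unpigmented ciliary layers, stood at 658 CPM (616 to 703) and 1318 CPM (1291 to 1345), a log2 ratio with an interval of 0.90 to 1.10. In unpigmented cells it stood at 38.4 and 75.4 CPM. *Wls*, which carries Wnt ligands to the cell surface, stood at 163 CPM (142 to 186) and 533 CPM (516 to 550), a log2 ratio of 1.71 (1.52 to 1.92), and the Wnt receptor *Fzd1* at 37.1 and 78 CPM (1.07). *Ccnd2*, a cyclin of the margin, was the lower gene, at 439 and 140 CPM (-1.65). *Zic1* was close between libraries, at 337 and 296 CPM (-0.19). Against unpigmented cells, 6 of the 11 genes in the control and 4 in the DKO were at least 2-fold higher, with medians of 1.21 and 0.71, against 9.21% and 7.17% of all genes.

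*Gja1* was already high in weakly pigmented cells. From under 10 to 100 or more per 10000 it stood at 505, 777, 1137 and 897 CPM in the control and at 1008, 1589, 1796 and 1071 CPM in the DKO. *Wls* stood at 58.5, 381, 340 and 286 CPM in the control and at 381, 659, 787 and 361 CPM in the DKO. Both genes were higher in the DKO in the 3 lower bins, whereas at 100 or more the intervals of the log2 ratio held 0, with 0.26 (-0.05 to 0.56) for *Gja1* and 0.34 (-0.21 to 0.89) for *Wls*. Unpigmented cells of the DKO also had more *Wls*, 61.3 CPM against 2.84 CPM.

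Pigmented cells kept part of the retinal progenitor program. Summed over the 19 progenitor genes, all of which passed, they held 3663 CPM in the control and 2947 CPM in the DKO, against 7327 and 6039 CPM in unpigmented cells. In the control, 10 of the 19 genes were at least 2-fold below unpigmented cells and 1 above, with a median log2 ratio of -1.35. In the DKO the counts were also 10 and 1, with a median of -1.15. Of all 8037 genes, 2.41% in the control and 3.11% in the DKO were as far below. With all other kept cells as the reference, the DKO median was -0.47. In cells thinned to 2000 UMIs, where 9 of the 19 genes passed, the medians were -0.24 and -0.21.

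The genes were kept very unequally. *Pax6*, which marks the whole optic cup, stood at 528 CPM (490 to 568) and 615 CPM (597 to 633) in pigmented cells, against 504 and 470 CPM in unpigmented cells. *Lhx2* stood at 214 and 221 CPM, with log2 ratios to unpigmented cells of -0.18 and -0.40. These genes were thus kept near the level of unpigmented cells in both libraries. *Sfrp2*, a secreted Wnt inhibitor, was kept at 17.6% of the unpigmented level in the control (347 against 1969 CPM) and 15.9% in the DKO (141 against 881 CPM). *Fgf15*, a secreted factor of progenitors, showed log2 ratios of -2.68 and -2.76, and *Sox2* ratios of -1.70 and -1.23. *Ccnd1*, the main D cyclin of retinal progenitors, was kept at 32.5% in the control (370 against 1136 CPM) and 15.1% in the DKO (206 against 1365 CPM). *Meis2* was the 1 higher gene, with ratios of 2.43 and 1.18.

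*Rax*, the eye field homeobox gene, stood apart between the libraries. It stood at 165 CPM (144 to 189) in control pigmented cells, 39.1% of the 423 CPM of unpigmented cells. In the DKO it stood at 412 CPM (398 to 427), 105% of the 392 CPM of unpigmented cells. The log2 ratio of DKO to control was 1.32 (1.12 to 1.52) in pigmented and -0.11 in unpigmented cells. With at least 10 UMIs of the 4 genes per 10000 it was 2.42. In thinned cells it was 2.99, with no interval computed. There the members were chosen anew by at least 2 UMIs of the 4 genes, which left 60 control and 447 DKO cells. Of the members as first chosen, thinned to 2000 UMIs, 24.2% in the control (23 of 95) and 50.6% in the DKO (318 of 629) had a *Rax* UMI. Without thinning, 59.2% and 82.4% did. Thinned blood cells showed a background of 3.88% and 3.80%. Thinning left out 3 control and 12 DKO members with fewer UMIs.

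**Figure D2:**
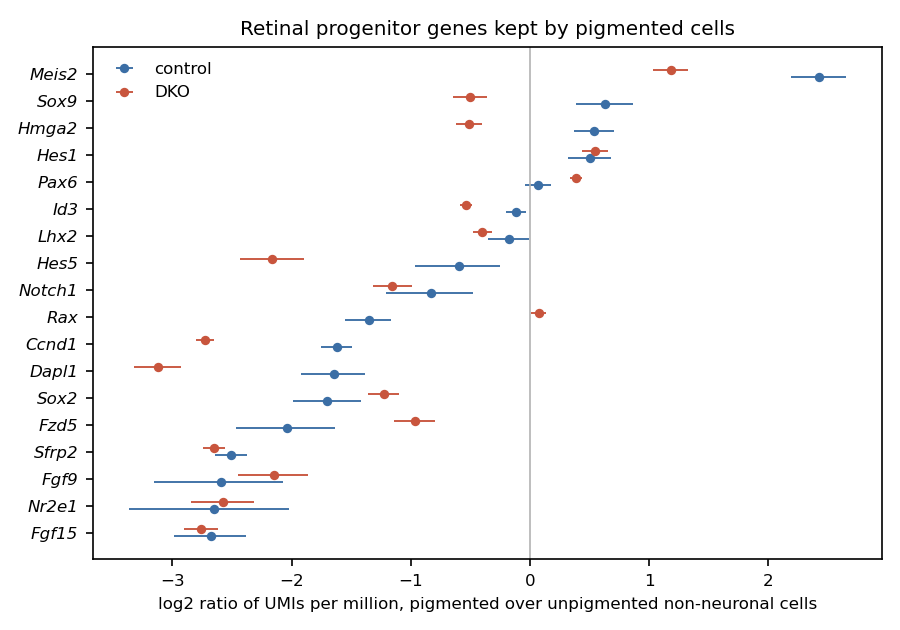
Log2 ratio of CPM in pigmented over unpigmented non-neuronal cells (horizontal axis) for 18 retinal progenitor genes (vertical axis), control and DKO; points are ratios and bars 95% intervals from the binomial split of the UMIs. *Pax6* and *Lhx2* lie near 0 in both libraries, *Sfrp2* and *Fgf15* lie below -2, and *Rax* lies at -1.35 in the control and 0.07 in the DKO.

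By pigment share, *Rax* declined in the control from 221 CPM (190 to 255) under 10, to 123, 74.7 and 29.6 CPM (10.8 to 64.3) at 100 or more. In the DKO it stood at 427 CPM (406 to 449), 464, 324 (292 to 358) and 24.5 CPM (6.67 to 62.7). Levels of *Rax* were thus higher in the DKO in the 3 lower bins. At 100 or more both libraries were low, on 6 control and 4 DKO UMIs, and the log2 ratio of -0.27 (-2.54 to 1.80) leaves the direction undetermined at this depth. Of the thinned cells, 36.5%, 14.3%, 0% and 10% of control cells had a *Rax* UMI in the 4 bins, the third value being 0 of 9 cells, which allows a share of up to 33.3%. In the DKO the shares were 50.6%, 56.7%, 44.3% and 0%, the last being 0 of 16 cells, which allows up to 18.75%.

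*Sfrp2* and *Ccnd1* were lower in the more pigmented bins of both libraries. *Sfrp2* stood at 488, 225, 41.5 and 54.2 CPM in the control bins and at 195, 109, 49.9 and 18.4 CPM in the DKO bins. *Ccnd1* stood at 529, 182, 99.6 and 44.3 CPM and at 287, 158, 74 and 18.4 CPM. *Pax6* had no such decline, with 522, 547, 697 and 434 CPM and 569, 663, 686 and 465 CPM. At 100 or more, 15% of thinned control cells (3 of 20) and 6.25% of DKO cells (1 of 16) had an *Sfrp2* UMI. In blood cells 9.50% and 4.57% did. For *Ccnd1* the shares were 5% (1 of 20) and 0% (0 of 16), against 7.55% and 6.96% of blood cells. Levels of these 2 genes in the highest bin cannot be told from background. The summed list held 4241, 3253, 2788 and 2173 CPM in the control and 3199, 2957, 2314 and 1769 CPM in the DKO. Over cells, the Spearman correlation of the summed list with the pigment share was -0.58 (98 control cells) and -0.28 (641 DKO cells). The points share a library and the pigment share itself went with depth (-0.52 and -0.36), so these are descriptions.

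**Figure D3:**
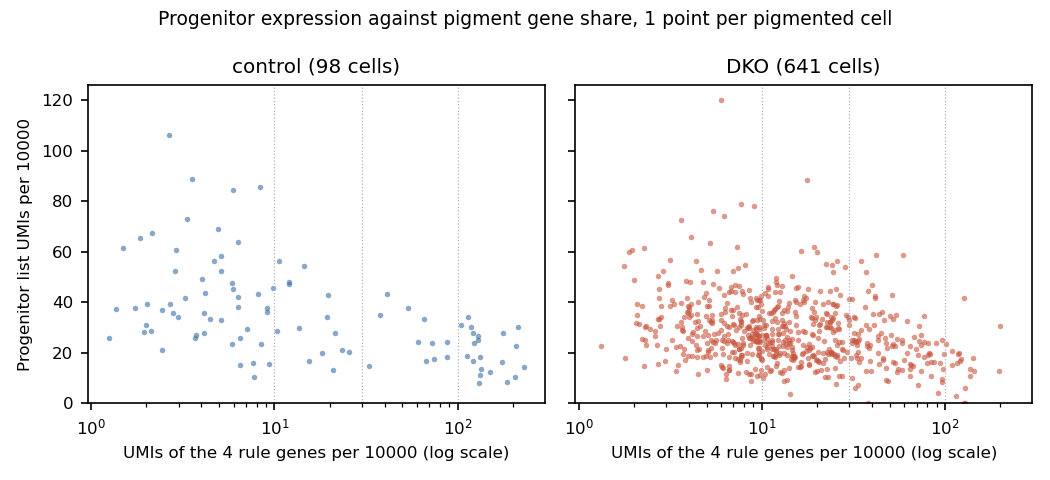
UMIs of the 19 progenitor genes per 10000 (vertical axis) against UMIs of the 4 selecting genes per 10000 (horizontal axis, log scale), 1 point per pigmented cell, 98 control and 641 DKO cells; dotted lines mark 10, 30 and 100. The cloud declines to the right in both panels, with rho of -0.58 and -0.28, and few DKO points lie past 100.

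**Figure D4:**
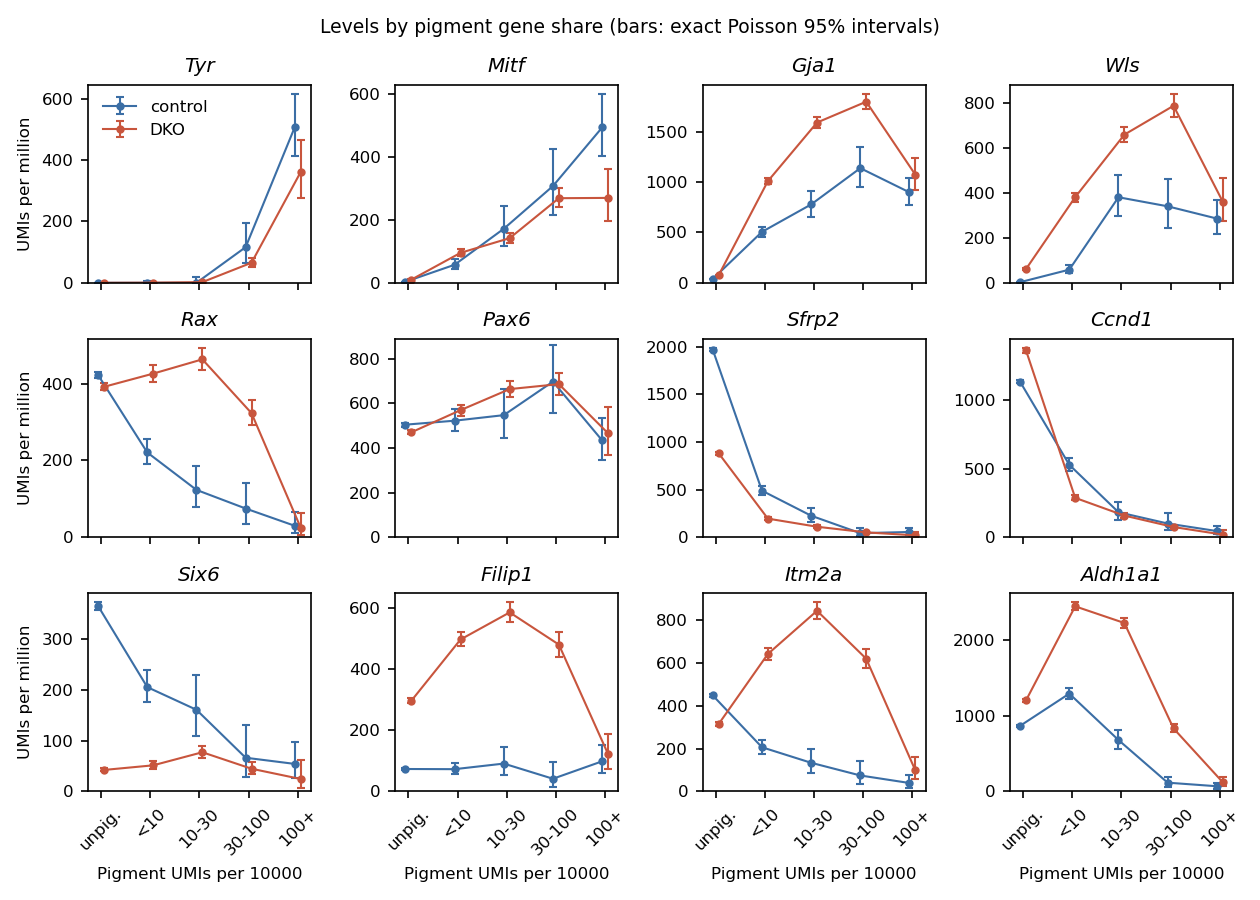
Levels in CPM (vertical axes) of 12 genes in unpigmented cells and in 4 bins of pigmented cells (horizontal axes), control and DKO; bars are exact Poisson 95% intervals. *Tyr* is at or near 0 below 30 per 10000 in both libraries, *Pax6* lies between 434 and 697, and *Rax*, *Filip1* and *Itm2a* of the DKO stay high through the 30 to 100 bin and are low at 100 or more.

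Between the libraries, 3 of the 19 progenitor genes were at least 2-fold lower in DKO pigmented cells and 1 higher, *Rax*, with a median log2 ratio of -0.61. Of all 8037 genes, 2.21% were as far below and 2.55% as far above. The lower genes were *Sfrp2* (-1.30), *Dapl1* (-1.54) and the Notch target *Hes5* (-1.57). *Sfrp2* did not reach 2-fold with at least 8 UMIs of the 4 genes (-0.57), with at least 10 per 10000 (-0.41) or at 10 to 100 (-0.79). The sign of this median turned with the limit: it was 0.018 with at least 8 UMIs of the 4 genes and 0.25 with at least 10 per 10000. In unpigmented cells the DKO to control ratio of *Sfrp2* was -1.16, close to that in pigmented cells, while those of *Dapl1* (-0.06) and *Hes5* (-0.01) were near 0.

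*Six3* and *Six6* were both detected in pigmented cells. *Six3* stood at 184 CPM (162 to 208) in control and 112 CPM (105 to 120) in DKO members, a log2 ratio of -0.71 (-0.92 to -0.50), against -0.26 in unpigmented cells. *Six6* stood at 164 CPM (143 to 187) and 57.7 CPM (52.3 to 63.6), a ratio of -1.51 (-1.75 to -1.26), against -3.11 in unpigmented cells. The kit reads the 3′ ends of transcripts, outside the deleted parts of these genes, so a UMI does not show an intact copy. *Six3* was lower in the more pigmented bins, with 219, 177, 124 and 83.8 CPM in the control and 147, 93, 49.9 and 61.2 CPM in the DKO. *Six6* was lower there in the control (205, 161, 66.4 and 54.2 CPM), while the DKO bins held 51.4, 77.2, 44.7 and 24.5 CPM. Thinned, 10% of DKO members (63 of 629) had a *Six6* UMI, against a background of 1.2% in DKO blood cells.

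Against unpigmented cells, the medians of the S phase list and of the G2 and mitosis list were below 0 in pigmented cells of both libraries. Many genes of these lists were 2-fold below unpigmented cells in the DKO. Of the S phase genes 34 of 37 passed, and 5 in the control and 28 in the DKO were at least 2-fold below unpigmented cells, with medians of -0.58 and -1.29. Of the G2 and mitosis genes 45 of 50 passed, with 2 and 28 as far below and medians of -0.50 and -1.06. Of all genes, 2.41% in the control and 3.11% in the DKO were as far below, so the control count of 2 of 45 was near that share. Between the libraries, 5 S phase genes were at least 2-fold lower in DKO pigmented cells (among them *Uhrf1* at -1.14 and *Rpa2* at -1.02) and 0 higher, with a median of -0.54. In G2 and mitosis the mitotic kinase gene *Aurka* (-1.22) was the 1 gene past 2-fold, and the median was -0.26. Of all genes, 2.21% were as far below between the libraries and 2.55% as far above. The 1 of 45 genes in G2 and mitosis was thus near the share of lower genes. Thinned, 22.1% of control and 14.6% of DKO members had a UMI of the proliferation marker *Mki67*, against 28.4% and 32.8% of unpigmented cells and 3.53% and 6.41% of blood cells.

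Summed S phase genes stood at 3208 CPM under 10 per 10000, 2465 at 10 to 30, 1842 at 30 to 100 and 2099 at 100 or more in the control, and at 2385, 1464, 1180 and 1855 CPM in the DKO. They were lower in the DKO in each of the 3 lower bins. Of 9 G1 cyclins and inhibitors 8 passed, with *Ccnd2* as the 1 gene past 2-fold between the libraries and a median of -0.58. Of all genes, 2.21% were as far below and 2.55% as far above. Against unpigmented cells the medians of this list were 0.72 in the control and 0.10 in the DKO. The inhibitor *Cdkn1c* stood at 750 CPM in control and 528 CPM in DKO members, above the 255 and 222 CPM of unpigmented cells, and *Gas1*, a growth arrest gene, at 329 and 274 CPM against 72.2 and 57.3 CPM.

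The median ratios of the signaling lists lay between -0.61 and 0.43. Of 23 Wnt genes 15 passed, with a median of -0.01. In the DKO 3 were at least 2-fold higher (*Wls*, *Fzd1* and the ligand enhancer *Rspo3*) and 2 lower (*Sfrp2* and the inhibitor *Dkk1*, -1.75). Of all genes, 2.55% were as far above and 2.21% as far below. *Rspo3* rests on 2 control and 207 DKO UMIs and passed the limit on UMIs only through the DKO. The Wnt targets *Axin2* (28.2 and 26.5 CPM) and *Lef1* (40.8 and 27.9 CPM) did not reach 2-fold. In unpigmented cells these targets stood at 2.38 and 5.36 CPM in the control and at 20.5 and 19.9 CPM in the DKO, so that in the DKO pigmented and unpigmented cells were close (log2 0.37 and 0.48), against 3.57 and 2.93 in the control.

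Of 12 FGF genes 7 passed and 0 reached 2-fold, with a median of -0.50. Between the libraries, 2.55% of all genes were at least 2-fold higher and 2.21% lower, so 0 of 7 was near these shares. Of 11 BMP genes 9 passed, with the receptor *Bmpr1b* higher (14.8 and 44 CPM, 1.57), the ligand *Bmp4* lower (28.2 and 13.2 CPM, -1.10) and a median of -0.61. Of 12 retinoid genes 7 passed, with 2 higher, 0 lower and a median of 0.43. *Aldh1a1*, which makes retinoic acid in the dorsal retina, stood at 919 CPM (869 to 972) and 2065 CPM (2032 to 2098), a ratio of 1.17 (1.08 to 1.25), and the binding protein *Crabp1* at 24.5 and 62.1 CPM (1.34). By bin *Aldh1a1* stood at 1294, 681, 116 and 69 CPM in the control and at 2450, 2229, 834 and 122 CPM in the DKO. It was thus lowest in the most pigmented cells of both libraries, and at 100 or more its ratio of 0.83 (-0.23 to 1.93) held 0.

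**Figure D5:**
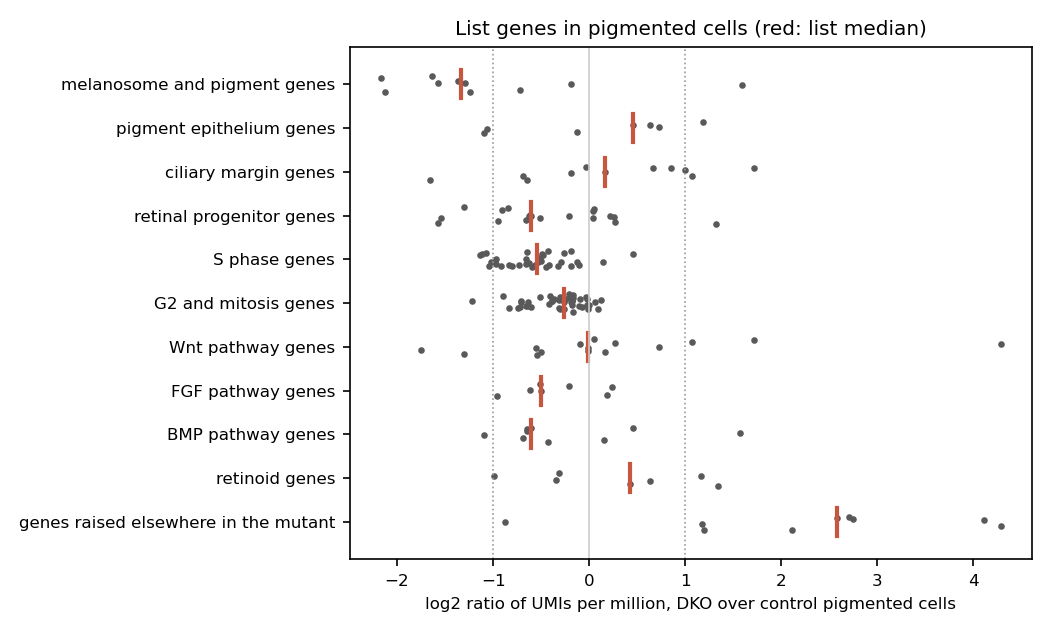
Log2 ratio of CPM, DKO over control pigmented cells (horizontal axis), 1 point per gene with at least 100 UMIs, for the gene lists (vertical axis); the red lines mark list medians and the dotted lines 2-fold. The melanosome genes lie mostly left of -1 with a median of -1.33, and the Wnt list is centered at -0.01.

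Genes that stand high elsewhere in the DKO retina were also high in its pigmented cells. Of 14 such genes 9 passed, with 8 at least 2-fold higher, 0 lower and a median of 2.58, against 2.55% of all genes higher. This list was chosen on these libraries and is no independent evidence of its direction. Genes high in the DKO also passed the limit on UMIs more easily, and *Dmrta2* below passed almost only through its DKO UMIs. *Filip1*, a filamin binding gene, stood at 76.4 CPM (62.4 to 92.7) and 513 CPM (497 to 530), a ratio of 2.75 (2.46 to 3.04), with 2.01 in unpigmented cells. *Tac1*, the gene of substance P, stood at 23 and 150 CPM (2.70), *Samd5* at 66.8 and 290 CPM (2.12), *Dmrta2* at 2.97 and 51.3 CPM (4.11) and *Ezr*, which links membrane to actin, at 150 and 340 CPM (1.18). At 100 or more per 10000, *Filip1* was close between the libraries, with 98.5 and 122 CPM (0.31, -0.66 to 1.28), whereas at 10 to 100 its ratio was 2.94 (2.34 to 3.62).

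Genes were ranked if they had at least 100 UMIs and a mean of at least 50 CPM over the libraries. Y-linked, hemoglobin and crystallin genes, *Xist* and *Tsix* were left out of the ranking. The 12 with the highest ratio in DKO pigmented cells were *Kctd8*, *Filip1*, *Tac1*, *Ina*, *Fst*, *Tmem108*, *Rprm*, *Samd5*, *Zfhx4*, *Itm2a*, *Mgarp* and *Tubb3*. *Kctd8*, a subunit of the GABA-B receptor, stood at 13.4 and 136 CPM (3.35) and *Fst*, the activin and BMP antagonist follistatin, at 31.2 and 156 CPM (2.33). *Itm2a* stood at 160 and 689 CPM (2.11) and *Tmem108* at 50.5 and 252 CPM (2.32). *Kctd8* was found in 60.4% of DKO and 11.2% of control members and was spread over the cells, with 5.05% of its DKO UMIs in the 5 highest cells. By bin, *Itm2a* stood at 207, 134, 74.7 and 39.4 CPM in the control and at 642, 844, 620 and 98 CPM in the DKO.

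*Ina* (2.44) and *Tubb3* (2.06), both cytoskeleton genes of neurons, were unevenly spread. *Stmn2*, another neuronal gene (45.3 and 166 CPM), had a UMI in 9 control and 120 DKO members. Thinned, 4.21% and 9.38% of members had one, against a background of 4.68% and 8.80% in blood cells, so these shares are not read as expression. In the control 93.4% of *Stmn2* UMIs lay in the 5 highest cells, against 25.2% in the DKO. At least 2 UMIs of the neuron genes were found in 8 control (8.16%) and 84 DKO members (13.1%). Of all kept cells with 0 UMIs of the 4 selecting genes, 39.9% and 58.6% had them. Of 12 neurogenic and neuronal genes 9 passed, with 2 higher (*Tubb3* and *Stmn2*), 0 lower and a median of 0.50. Of all genes, 2.55% were at least 2-fold higher and 2.21% lower. Whether the members with neuronal UMIs are doublets with neurons was not tested. Without the cells with neuronal UMIs, the *Rax* ratio of DKO to control was 1.40.

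Among the ranked genes, the 12 with the lowest ratio were *Clu*, *Pcp4*, *H19*, *Krt18*, *Gadd45b*, *Mlana*, *Tyr*, *Mecom*, *Igfbp7*, *Eno3*, *Egr1* and *Spon1*. *Krt18*, a keratin of simple epithelia, stood at 45.4, 102, 357 and 1173 CPM in the control bins and at 9.73, 9.48, 166 and 753 CPM in the DKO bins. *Pcp4*, a calmodulin regulator, stood at 7.16, 32.2, 456 and 946 CPM and at 3.89, 7.67, 70.6 and 667 CPM. Both were thus highest in the most pigmented cells of both libraries and lower in the DKO there, with ratios of -0.64 (-0.96 to -0.32) and -0.50 (-0.86 to -0.16). *Clu*, a secreted chaperone, stood at 641 and 141 CPM at 100 or more.

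*Egr1* and *Gadd45b* belong to a list of genes known to respond to tissue dissociation, which was added after the values had been seen. Of 11 such genes 9 passed, with 6 at least 2-fold lower and 0 higher in DKO pigmented cells, against 2.21% and 2.55% of all genes, and a median of -1.32. *Egr1* stood at 456, 841, 2871 and 3242 CPM in the control bins and at 260, 331, 459 and 1629 CPM in the DKO bins, and *Fos* pooled at 1018 and 409 CPM. Pigmented cells stood above unpigmented cells for this list, with medians of 1.99 in the control and 0.93 in the DKO. Its part in the difference of the melanosome genes was not tested.

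The 12 genes furthest above unpigmented cells, as a mean of both libraries, were *Tyr*, *Gpnmb*, *Mlana*, *Pcp4*, *Slc38a8*, *Slc4a5*, *Krt18*, *Rab38*, *Mitf*, *Wls*, *Clmp* and *Gja1*. *Slc4a5*, a bicarbonate transporter, was close between libraries (-0.06, -0.37 to 0.24), whereas *Slc38a8*, an amino acid transporter (-1.03), and *Clmp*, an adhesion gene (-1.27), were lower in the DKO.

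Markers of melanocytes, mesenchyme, endothelium, macrophages, lens and red blood cells were summed in the members. The sums were highest for red blood cells, followed by lens. The 7 melanocyte and neural crest markers summed to 23.7 CPM in control and 12 CPM in DKO members, with *Sox10* and *Foxd3* at 0. The 8 mesenchyme markers summed to 5.94 and 3.5 CPM, with *Col3a1* and *Lum* at 0, and the 5 endothelial markers to 43.8 and 21.3 CPM, with *Cdh5* and *Emcn* at 0. The 5 macrophage markers summed to 2.97 and 22.4 CPM, with a *Tyrobp*, *C1qa* or *C1qb* UMI in 0 control and 10 DKO members. Unpigmented cells held 0.71 and 2.05 CPM, but they were chosen with at most 1 UMI over *Tyrobp*, *C1qa* and *C1qb*. The members were not, so these levels cannot be compared. The 5 lens markers summed to 171 and 179 CPM, below the 382 and 260 CPM of unpigmented cells. The hemoglobin genes summed to 4047 and 2041 CPM, above the 1202 and 875 CPM of unpigmented cells. An *Hbb-y* UMI was found in 96 of 98 control members, and a few cells held most UMIs, with 87.8% of control *Hbb-y* UMIs in 5 cells and 86.9% of DKO *Hbb-bs* UMIs in 5 cells. The part of these markers in the differences was not tested.

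Kept cells below the limit for pigmented cells and with at least 4 *Gja1* UMIs, 181 in the control and 445 in the DKO, were set beside the weakly pigmented cells. Unlike the unpigmented cells above, these *Gja1* cells could hold UMIs of the selecting genes. The selecting genes summed to 52.1 CPM (control) and 102 CPM (DKO) in them, against 407 and 560 CPM in pigmented cells under 10 per 10000. The part of these UMIs in the values below was not tested. The *Gja1* cells had medians of 15856 and 9133 UMIs. In them *Rax* stood at 278 CPM in the control and 369 CPM in the DKO, *Mitf* at 19.9 and 59.7 CPM and *Aldh1a1* at 1704 and 3217 CPM. In pigmented cells under 10 per 10000 the values were 221 and 427 CPM for *Rax*, 57.3 and 95.1 CPM for *Mitf*, and 1294 and 2450 CPM for *Aldh1a1*. The progenitor list summed to 4767 and 3686 CPM in the *Gja1* cells, against 4241 and 3199 CPM in the weakly pigmented cells.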

How the data were processed

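The authors mapped the reads of both libraries to mm10 with Cell Ranger 3.1.0 (per the labels and the submitters' processing notes) and deposited, for each called cell, raw UMI counts of every gene. From these counts, cells were kept and pigmented cells chosen by the limits in the report, which add to the study's limits on genes and mitochondrial RNA a lower mitochondrial, a hemoglobin and a lens limit. Levels are UMIs summed over cells per 1000000 UMIs of these cells, for genes with at least 100 UMIs over both libraries, and a gene counted as higher or lower past 2-fold (log2 of 1). A gene at 0 was set against a floor of 3 UMIs. Intervals are exact Poisson (levels), exact binomial (shares) and from the exact binomial split of UMIs (ratios), at 95%, and cover counting error only. Python 3.11.15, numpy 2.4.6, scipy 1.17.1, pandas 2.3.3 and matplotlib 3.10.9 were used, and the scripts were tested on simulated data. No doublet caller was run; members with at least 2 UMIs of markers of other types were left out in an alternative.

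Named genes were those of the lists, *Six3*, *Six6*, and the 12 genes at each extreme given in the report (mean of at least 50 CPM). Y-linked, hemoglobin and crystallin genes, *Xist* and *Tsix* were left out of the ranking for these extremes. The members and lists were chosen with earlier results of these data known. The dissociation list and the alternatives by bin, by share per 10000 and without neuronal UMIs were added after the values had been seen. Some genes of the lists are not reported here. With 1 library per genotype no test or p-value was computed. The alternatives were limits of 8 UMIs and of 20 UMIs per gene, thinning to 2000 UMIs, means over cells, other totals, centering on the median gene, cells with at least 1000 genes, all unpigmented cells as the reference, and genes whose interval lay past 2-fold.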

Additional observations from a re-analysis of the deposited data

Results flagged for a closer look

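In some genes the ratio of pigmented to unpigmented cells had opposite signs in the libraries, and 4 of them were flagged. *Zfhx4* also had opposite signs (-0.78 in the control and 1.17 in the DKO) and was not flagged. The differences were not tested, since each genotype had 1 library. For *Ccnd2*, a D cyclin, the log2 ratio was 1.47 in the control and -0.94 in the DKO. For *Kctd8* it was -2.02 and 2.09, for *Fst* -0.98 and 1.21, and for *Itm2a* -1.49 and 1.13.

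Among the cells left out by the limits, which no comparison used, 30 control and 67 DKO cells had at least 4 UMIs of the 4 selecting genes. The limit on detected genes left out 21 and 39 of these.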

How the results depend on the processing

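No paired analysis was possible because control and DKO had 1 library each, and leaving one out leaves no comparison. The difference in the share of pigmented cells (4.99 points) was 3.47 with at least 8 UMIs, 3.85 in thinned cells and 3.05 with at least 10 UMIs per 10000. The count of genes 2-fold higher in the DKO was 205 of 8037. It was 97 of 1788 in thinned cells and 559 of 11542 with at least 20 UMIs per gene. Where the interval lay past 2-fold it was 75 of 8037, and at 100 or more per 10000 it was 7 of 513. The count of lower genes (178) was 37, 617, 71 and 8 of the same totals. As means over cells it was 270 of 8037, and under 10 per 10000 it was 72 of 5995. Fewer or more genes passed the limit in thinned cells and with 20 UMIs.

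The progenitor median against unpigmented cells in the control (-1.35) was -1.86 with 8 UMIs, -0.24 in thinned cells (9 genes), -1.65 without cells with other markers, -1.59 as means over cells and -1.60 without neuronal UMIs. In the DKO (-1.15) it was -0.90, -0.21, -1.33 as means over cells, -0.47 against all unpigmented cells and -0.87 with at least 10 per 10000. The DKO to control median of this list (-0.61) turned to 0.018 with 8 UMIs and 0.25 with at least 10 per 10000, and was -0.15 at 10 to 100.

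The melanosome median (-1.33) was -1.88 with 8 UMIs, -0.79 in thinned cells (3 genes), -1.97 with at least 10 per 10000, -0.85 at 10 to 100, -0.45 at 100 or more, and 0.73 under 10. The ciliary margin median (0.17) was 0.44, 0.66, 0.61 and 0.39 with 8 UMIs, thinned, with at least 10 and under 10 per 10000. Of single genes, *Rax* (1.32) was 2.99 in thinned cells and turned to -0.27 at 100 or more, *Ccnd1* to 0.20 with at least 10 per 10000 and *Mitf* to 0.73 under 10. The cause was not tested. The bins rest on as few as 11 control cells.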
